A study of Rattus norvegicus with 8 samples.

Results

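The EGF family ligands and the ErbB receptors were described in primary rat nucleus pulposus (NP) cells, which fill the gel-like centre of the spinal disc, after knockdown of the deacetylase Sirt6. The 10 genes are named by symbol, with no threshold on their values, but were picked with earlier results of these data known. They were the ligands Tgfa, Ereg, Areg, Hbegf, Btc and Nrg1, the receptors Egfr, Erbb2 and Erbb3, and the receptor inhibitor Errfi1. Of these, 9 had a row in the table that pairs Ensembl identifiers with names and were tested among 13250 genes. Erbb3 had no row under that name in the table, which holds only rows with 8 read counts that sum to more than 80, and was not analysed here. Cells of adult Sprague Dawley rats were transduced with lentivirus carrying a control ShRNA (Sirt6-Ctrl, 4 libraries named S1 to S4) or a mixture of 3 ShSirt6 clones (Sirt6-KD, 4 libraries named S5 to S8). Lentiviral transduction, puromycin selection and culture in serum were thus shared by both groups. The knockdown is that of a selected population of cells and not of 1 clone. The series describes cells of 4 rats, but neither the labels nor the count columns say which Sirt6-KD and Sirt6-Ctrl libraries shared a rat.

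Reads were counted per gene, and a level is given in CPM, the reads of a gene scaled to a common library size by TMM normalization, which assumes that most genes do not differ between libraries. Total counts were 31994838 to 40124813 per library, so that 3 counts corresponded to 0.0727 to 0.0928 CPM. Sirt6 itself had 1755 to 1964 reads in Sirt6-Ctrl and 695 to 753 in Sirt6-KD, a fall to 20.6 ± 1.07 CPM from 52.7 ± 3.78 CPM (mean ± SD of 4 libraries, as for all levels below). Spike-in RNAs took 2.97% to 9.80% of the counts in Sirt6-Ctrl, highest in S2 and S1, and 2.15% to 2.47% in Sirt6-KD. For the EGF family genes, results are therefore also given without S1 and S2, and S3 is named where it lay near the Sirt6-KD libraries. For other genes this was done only in part. Of the NP markers, 8 of 14 names searched were tested, and Krt18, Krt19, T (Tbxt), Shh and Col2a1 had no row. The 8 had a summed level of 250 to 322 CPM in Sirt6-Ctrl and 285 to 324 CPM in Sirt6-KD, and the keratin Krt8 was low, at 3.74 to 10.7 CPM in Sirt6-Ctrl and 2.24 to 3.30 CPM in Sirt6-KD, and was called lower. The call of Krt8 (adjusted p = 0.0441, edgeR) was lost without S1, S5, S6, S7 or S8, and without both S1 and S2. The other 7 NP markers tested were not called, with a log2FC (the log2 of the fold change of Sirt6-KD against Sirt6-Ctrl) from -0.98 for Cd24 to 1.53 for Car12. The annulus fibrosus and fibroblast markers, 7 of 8 tested and mostly Col1a1, with the tendon factor Scx called lower, summed to 13800 to 26200 CPM in Sirt6-Ctrl and 8500 to 18100 CPM in Sirt6-KD. Scx was close to the threshold (adjusted p = 0.049, edgeR), and its groups overlapped. The 4 epithelial markers and 5 of the 6 endothelial markers had no row under the names searched, the endothelial receptor Tek had 0 to 21 reads per library and was not tested, and 3 of 6 leukocyte markers were tested, at a summed 11.9 to 29.7 CPM in Sirt6-Ctrl and 15.0 to 23.8 CPM in Sirt6-KD. The ranges of these lists overlapped between the groups, and their part in the results below was not tested. In libraries of whole cultures, fewer cells that express a gene and less of its RNA per cell cannot be told apart.

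EGF family ligands are made as membrane-bound precursors and are released from the cell surface by metalloproteases. TGF-α, amphiregulin, epiregulin, betacellulin and HB-EGF bind the EGF receptor, and betacellulin, epiregulin and HB-EGF also bind ErbB4, whereas neuregulin 1 binds ErbB3 and ErbB4. Bound receptors form dimers, for which ErbB2, which has no known ligand of its own, is the favoured partner. The dimers start RAS-ERK and PI3K-AKT signalling, which is known to raise transcription of several of the ligands and of Errfi1, whose product binds the kinase domain of the receptors and blocks it.

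RefSeq promoter sequences (assembly GRCr8, not the Rnor_6.0 build named in the submitters' processing notes) were matched by symbol for 7 of the 10 genes, which were Tgfa, Areg, Hbegf, Btc, Egfr, Erbb2 and Errfi1. Shown here are the 250 bases before the start of Areg (chr14:17265642-17265891, minus strand), Errfi1 (chr5:166606591-166606840, plus strand) and Egfr (chr14:95378376-95378625, plus strand). They were chosen because the first 2 hold a TATA box and a cAMP response element (CRE) or part of one, and the receptor promoter holds neither. Capitals mark the CRE (TGACGTCA) and the TATA box (TATAAA) in Areg, the CRE core (TGACG, here on the other strand) and the TATA box in Errfi1, and the GC box (GGGCGG, here on the other strand) in Egfr.
Areg: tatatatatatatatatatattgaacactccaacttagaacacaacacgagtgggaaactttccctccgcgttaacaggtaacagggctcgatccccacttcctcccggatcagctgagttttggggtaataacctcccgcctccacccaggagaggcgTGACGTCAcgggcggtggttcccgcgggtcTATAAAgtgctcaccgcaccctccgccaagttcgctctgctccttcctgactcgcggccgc
Errfi1: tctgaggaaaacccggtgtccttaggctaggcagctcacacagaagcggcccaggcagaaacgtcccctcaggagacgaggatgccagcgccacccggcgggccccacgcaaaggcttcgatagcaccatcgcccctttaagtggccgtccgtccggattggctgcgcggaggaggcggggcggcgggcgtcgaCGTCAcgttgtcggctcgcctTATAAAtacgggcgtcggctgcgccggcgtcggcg
Egfr: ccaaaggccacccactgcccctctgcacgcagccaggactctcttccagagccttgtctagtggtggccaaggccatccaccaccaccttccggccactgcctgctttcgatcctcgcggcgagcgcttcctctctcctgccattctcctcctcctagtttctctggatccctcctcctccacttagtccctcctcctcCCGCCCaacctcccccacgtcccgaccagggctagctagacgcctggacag
In Areg the CRE begins 91 bases and the TATA box 61 bases before the start, and in Errfi1 the CRE core and the TATA box begin 56 and 35 bases before it. Both strands were searched, and every CRE also holds the CRE core. The full CRE was found in Areg alone among the 7 and in 1.59% of the 33469 promoters searched over the same 250 bases. The CRE core was found in Areg, Errfi1 and Hbegf and in 18.2% of all promoters, and the TATA box in Areg and Errfi1 and in 12.9%. A GC box was found in 6 of the 7, all but Hbegf, and in 30.5% of all promoters. An AP-1 site (TGANTCA) and an EGR site (GCGNGGGCG) were found in none of the 7, against 6.34% and 4.29% of all promoters, and a TEAD site (CATTCC) was found only in Erbb2, against 12.1%.

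Sirt6-KD cells had more transcript of 3 of the 6 ligands and, less firmly, of the inhibitor Errfi1, and neither receptor tested passed the test. A gene was called where edgeR's quasi-likelihood test gave a Benjamini-Hochberg adjusted p below 0.05 with more than 1.5 times the level. By this rule Tgfa, Ereg, Hbegf and Errfi1 were called higher, which is 4 of the 9 genes tested, or 44.4%, against 8.02% of all genes. None was called lower, against 10.7% of all genes. At an unadjusted p below 0.05, which 36.6% of all genes reached in either direction, 6 were higher and 0 lower, and 0 were called lower by DESeq2 or limma-voom too. Without S1 and S2, 3 were called higher, against 5.71% of all genes. The log2FC was above 0 for 8 of the 9 genes, as for 49.1% of all genes, and its median was 1.3, beside -0.016 for all genes tested. For 4 genes, Tgfa, Ereg, Hbegf and Erbb2, every Sirt6-KD library lay above every Sirt6-Ctrl library, as it did for 14.8% of all genes. Erbb2 narrowly missed the adjusted p (0.0598, edgeR) and was called by DESeq2 and limma-voom. Errfi1, whose groups overlapped, lost its call under 8 of 16 alternatives.

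**Figure D1:**
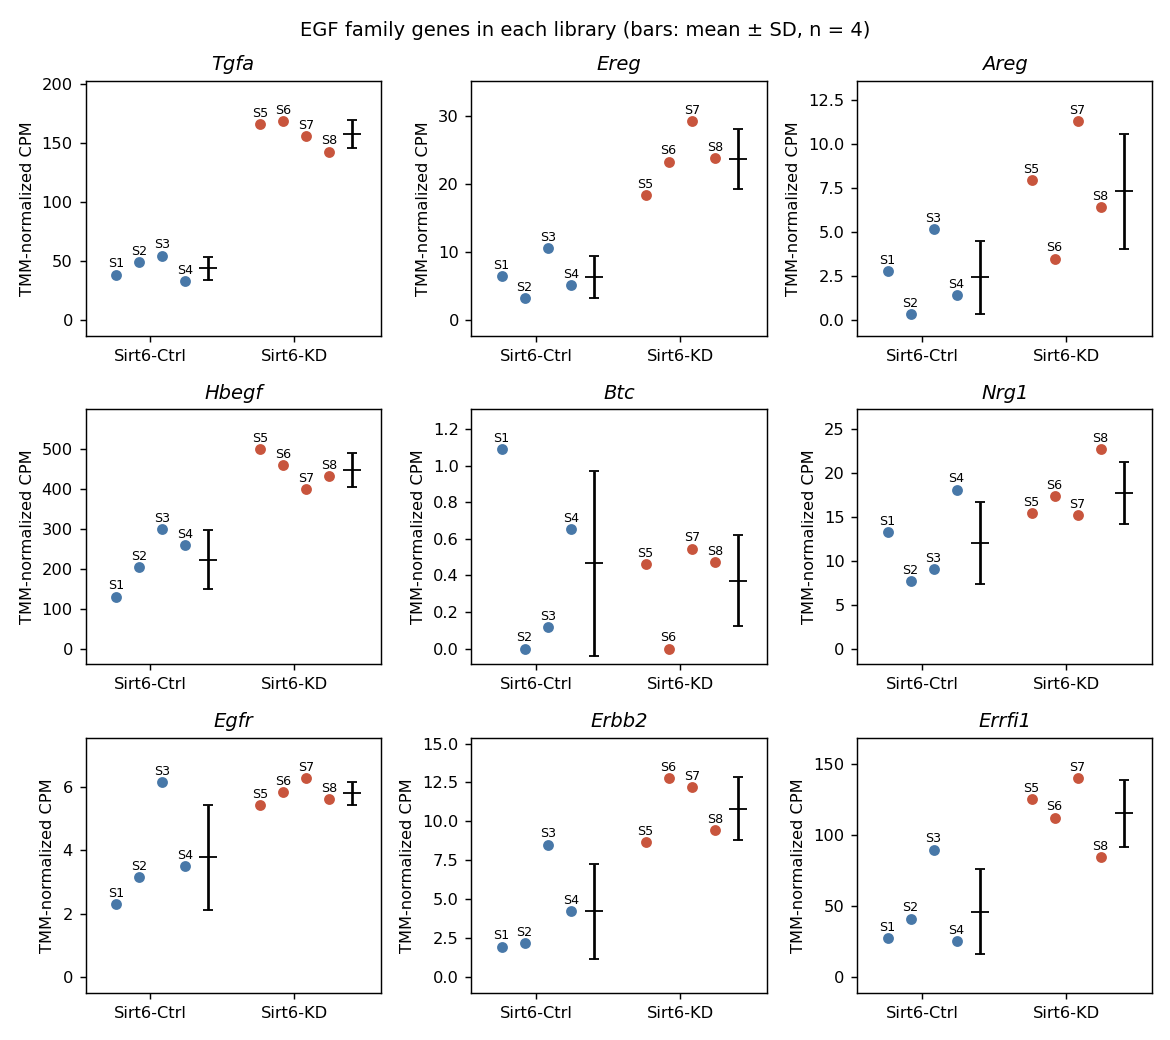
Level of each EGF family gene in each library, in TMM-normalized CPM on a linear axis with its own scale per gene. Blue points are the Sirt6-Ctrl libraries S1 to S4, red points the Sirt6-KD libraries S5 to S8, and bars give the mean ± SD (n = 4). Tgfa, Ereg and Hbegf were separated by group, while S3 reached the Sirt6-KD range for Egfr, Areg and Errfi1 and lay just below it for Erbb2.

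Tgfa encodes TGF-α, a ligand of the EGF receptor alone. Its level was 38.6, 49.0, 54.7 and 33.3 CPM in S1 to S4 and 166, 169, 156 and 143 CPM in S5 to S8. The lowest Sirt6-KD library was thus well above the highest Sirt6-Ctrl library, and the spread within each group was small beside the gap between them. The mean rose from 43.9 ± 9.72 to 158 ± 11.8 CPM. The log2FC was 1.85 ± 0.17 (SE), with an adjusted p = 0.000402 in edgeR, which ranks Tgfa 14th by p among all genes tested. Tgfa was called with each library left out in turn, with a log2FC of 1.74 to 1.97. Without both S1 and S2 it was called with 1.86 (adjusted p = 0.00267, edgeR).

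Ereg encodes epiregulin, a ligand of the EGF receptor and ErbB4. It had 226, 105, 360 and 210 reads in S1 to S4, or 6.49, 3.25, 10.6 and 5.09 CPM. In S5 to S8 it had 637, 779, 1125 and 803 reads, or 18.4, 23.3, 29.3 and 23.8 CPM. The groups did not overlap, although S3 was the highest Sirt6-Ctrl library, as it was for Tgfa. The log2FC was 1.90 ± 0.34 (SE), with an adjusted p = 0.00636 in edgeR. Without S1 and S2 it was 1.61 (adjusted p = 0.0166, from 2.2e-06 to 0.0711 over all alternatives).

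Hbegf encodes HB-EGF, which binds heparin and is known to be induced by growth factors and stress. Its level was 130, 204, 299 and 260 CPM in S1 to S4 and 499, 459, 399 and 432 CPM in S5 to S8. Here S1 was the lowest Sirt6-Ctrl library and S3 the highest, and all 4 Sirt6-KD libraries were above them. The mean rose from 223 ± 73.2 to 447 ± 42.3 CPM, with a log2FC of 1.0 ± 0.23 (SE) and an adjusted p = 0.0138 in edgeR. Without S1 and S2 it was called with 0.69 (adjusted p = 0.0158, from 0.000464 to 0.0834 over all alternatives).

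Areg, the gene with the full CRE in the window shown, encodes amphiregulin, a ligand of the EGF receptor alone. It had 97, 11, 175 and 59 reads in S1 to S4 and 275, 117, 435 and 217 in S5 to S8. In CPM these were 2.79, 0.34, 5.15 and 1.43 against 7.96, 3.49, 11.3 and 6.42, so that S3 lay above S6 and the groups overlapped. Areg was not called, with a log2FC of 1.59 and an interval from 0.06 to 3.12 (95%, SE 0.69, with an adjusted p = 0.122 in edgeR). Leaving out S3 raised the log2FC to 2.26, and Areg was then called (adjusted p = 0.036, from 0.036 to 0.294 over all alternatives). Without S1 and S2 the log2FC was 1.16, and Areg was not called (adjusted p = 0.214, edgeR).

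Nrg1 encodes neuregulin 1, the only ligand of ErbB3 and ErbB4 among the genes tested that does not bind the EGF receptor. It had 13.3, 7.64, 9.07 and 18.1 CPM in S1 to S4 and 15.4, 17.4, 15.2 and 22.7 CPM in S5 to S8. S4 was above all Sirt6-KD libraries but S8, and the difference did not pass the test (log2FC 0.55, 95% interval -0.09 to 1.2, adjusted p = 0.198, edgeR). Without S1 and S2 the log2FC of Nrg1 was 0.39 (adjusted p = 0.404, edgeR). Btc, which encodes betacellulin, was scarcely detected. It had 38, 0, 4 and 27 reads in S1 to S4 and 16, 0, 21 and 16 in S5 to S8, and the 0 reads of S2 and S6 allow up to 0.0928 and 0.0896 CPM. Its log2FC of -0.33 had an interval from -3.38 to 2.72 (95%, adjusted p = 0.891, edgeR), so neither a rise nor a fall was detectable at this depth.

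Areg and Ereg are neighbours on the GRCr8 assembly, in the order Btc, Areg, Ereg, Epgn and Mthfd2l. Epgn, which encodes the ligand epigen, had no row under that name and was not analysed here. Mthfd2l, which encodes a mitochondrial folate enzyme and no ligand, had 7.67, 12.2, 2.83 and 6.33 CPM in S1 to S4 and 3.88, 4.72, 4.33 and 4.73 CPM in S5 to S8. Its groups overlapped, with S3 the lowest library of all, and it was not called (log2FC -0.72, 95% interval -1.65 to 0.21, adjusted p = 0.245, edgeR).

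Egfr encodes the EGF receptor. It had 80, 102, 209 and 144 reads in S1 to S4 and 187, 195, 241 and 190 in S5 to S8, or 2.30, 3.15, 6.15 and 3.49 CPM against 5.41, 5.82, 6.28 and 5.62 CPM. Sirt6-KD libraries were close together, and S3 lay among them, above all but S7. The difference did not pass the test (log2FC 0.62, 95% interval -0.22 to 1.45, adjusted p = 0.266, edgeR), and without S1 and S2 the log2FC was 0.27.

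Erbb2 encodes the receptor that pairs with the other ErbB proteins. Its reads numbered 68, 70, 289 and 174 in S1 to S4 and 299, 427, 468 and 319 in S5 to S8. In CPM these were 1.95, 2.16, 8.51 and 4.22 against 8.65, 12.8, 12.2 and 9.44, so the groups were separated only by the narrow gap between S3 and S5. Erbb2 missed the threshold in edgeR (log2FC 1.35 ± 0.46, SE, with an adjusted p = 0.0598) and was called by DESeq2 (adjusted p = 0.0166), by limma-voom (0.0204) and by edgeR without S3 (0.00513), and its adjusted p reached 0.148 at most among the alternatives. Without S3 its log2FC was 1.95, and without S1 and S2 it was 0.77.

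Errfi1, which shares the TATA box with Areg in the windows shown, encodes MIG6, the feedback inhibitor of the ErbB kinases. Its level was 27.5, 41.1, 89.5 and 25.0 CPM in S1 to S4 and 125, 112, 140 and 84.5 CPM in S5 to S8. S3 lay above S8, so the groups overlapped, although the other 3 Sirt6-Ctrl libraries were at 41.1 CPM or less. On average it rose from 45.8 ± 30.0 to 115 ± 23.6 CPM. The log2FC was 1.33 ± 0.37 (SE), with an adjusted p = 0.0288 in edgeR. This call was lost on leaving out S1, S2, S4, S5, S6 or S7, with log2FC values of 1.18, 1.30, 1.13, 1.29, 1.35 and 1.23, and was kept without S3, with 1.89. It was lost without S1 and S2 as well, with 1.02 (adjusted p = 0.147, from 0.000662 to 0.147 over all alternatives).

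**Figure D2:**
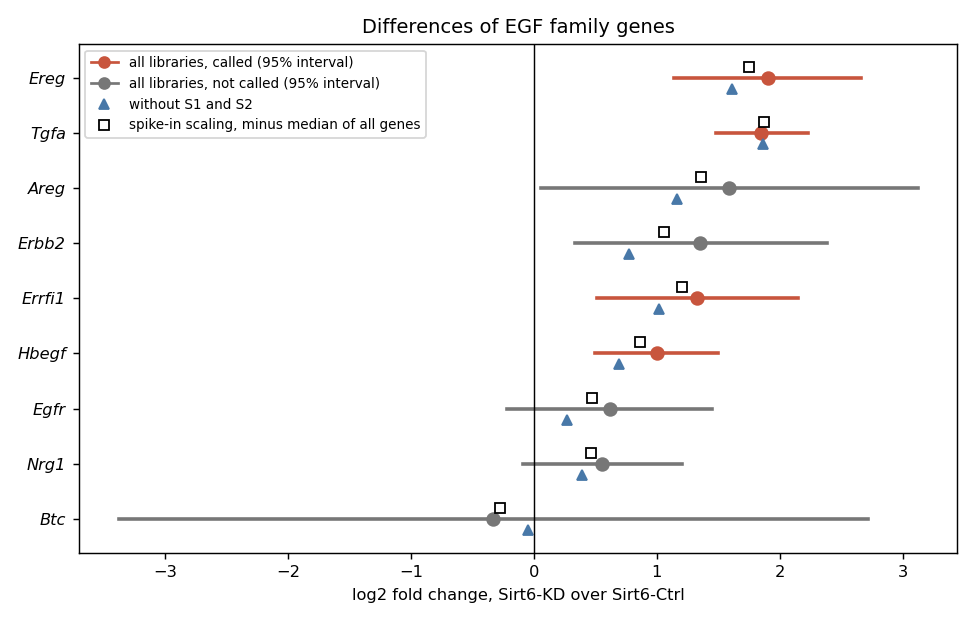
Fold change between the groups on the log2 scale (log2FC) for the 9 genes tested, with the 95% interval of the edgeR fit, red where the gene was called and grey where it was not. Blue triangles give the fold change without S1 and S2, and open squares that with spike-in scaling after subtraction of the median of all genes under that scaling. The interval of Tgfa, 1.48 to 2.23, was the narrowest, and that of Btc, -3.38 to 2.72, the widest.

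The scaling between libraries mattered for the levels. When libraries were scaled to equal spike-in counts, all genes together had a median log2FC of 0.94, Sirt6 had -0.36 (adjusted p = 0.567, edgeR), and Tgfa was the only one of the 9 genes called (log2FC 2.82, adjusted p = 0.0362, from 7.66e-20 to 0.0362 over all alternatives). Few genes of any kind were called under this scaling, 20 higher and 4 lower among 13250. Relative to that median, Tgfa was 1.87, Ereg 1.75, Areg 1.36, Errfi1 1.2, Erbb2 1.06, Hbegf 0.86, Egfr 0.47, Nrg1 0.46 and Btc -0.28 on the log2 scale. The order of the genes was that of the TMM values, except that Tgfa came before Ereg and Errfi1 before Erbb2.

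Ratios of the read counts of a pair of genes within a library do not depend on how libraries are scaled. They were compared between libraries only, since transcripts differ in length and a ratio does not say which of the pair is more abundant. For each read of Egfr there were 8.89 to 16.8 reads of Tgfa in Sirt6-Ctrl and 24.9 to 30.6 in Sirt6-KD. Ereg had 1.03 to 2.82 reads per read of Egfr in Sirt6-Ctrl and 3.41 to 4.67 in Sirt6-KD, and Errfi1 had 7.15 to 14.5 against 15.0 to 23.1. Erbb2 had 0.686 to 1.38 reads per read of Egfr in Sirt6-Ctrl and 1.6 to 2.19 in Sirt6-KD. In these 4 of the 8 ratios to Egfr, all Sirt6-KD libraries were above all Sirt6-Ctrl libraries, as they were for 3.35% of all genes set against Egfr. For Errfi1 the gap between S3 and S8 was narrow. The ratios of Areg, Hbegf, Nrg1 and Btc overlapped. Hbegf had 48.6 to 74.4 reads per read of Egfr in Sirt6-Ctrl and 63.5 to 92.2 in Sirt6-KD, and Areg 0.108 to 1.21 against 0.60 to 1.80. Among the ligands, Tgfa had 0.128 to 0.296 reads per read of Hbegf in Sirt6-Ctrl and 0.33 to 0.392 in Sirt6-KD, without overlap. Areg had 0.105 to 0.486 reads per read of Ereg in Sirt6-Ctrl and 0.15 to 0.432 in Sirt6-KD, ranges that nearly coincided.

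**Figure D3:**
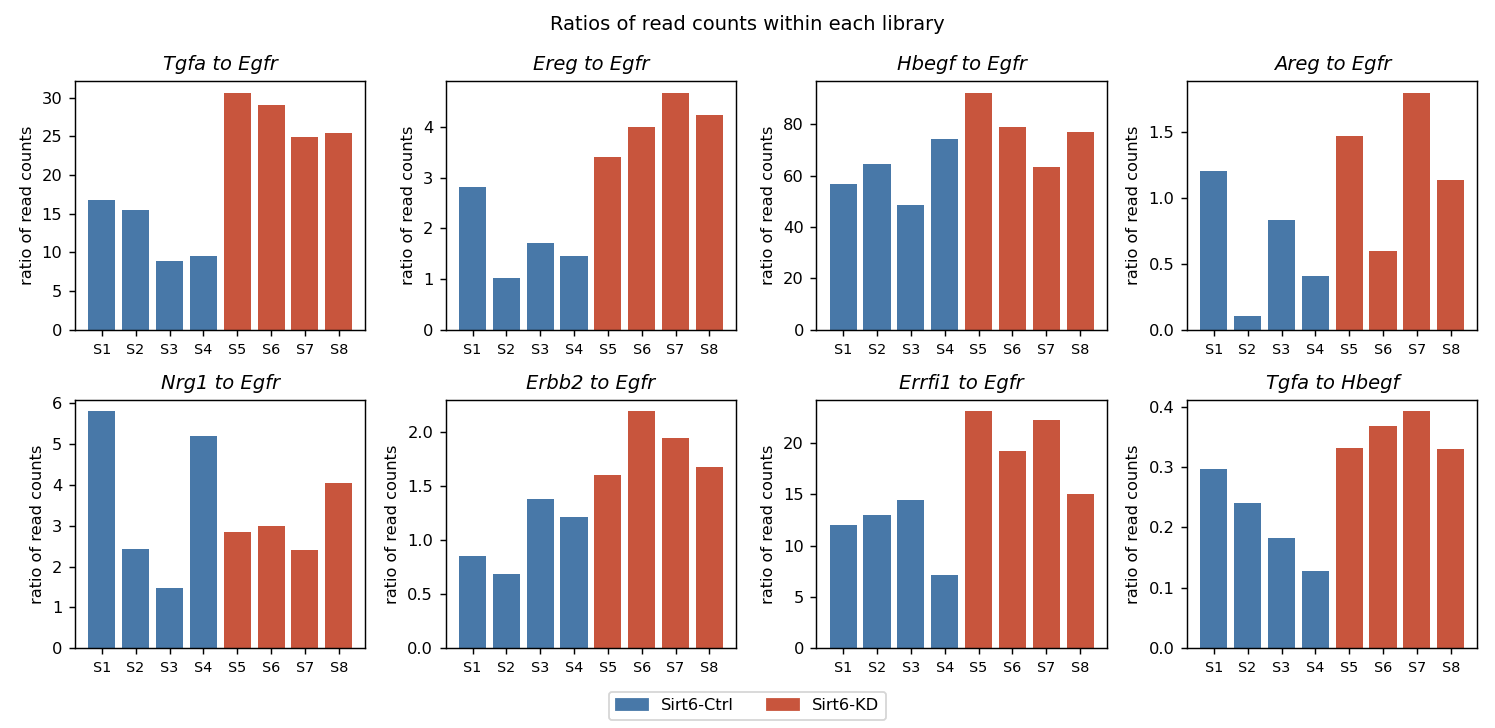
Ratio of read counts of a pair of genes in each library, on a linear axis from 0 with its own scale per pair, for Sirt6-Ctrl (blue, S1 to S4) and Sirt6-KD (red, S5 to S8). All Sirt6-KD bars of Tgfa, Ereg, Erbb2 and Errfi1 to Egfr and of Tgfa to Hbegf were above those of Sirt6-Ctrl, while those of Hbegf, Areg and Nrg1 to Egfr overlapped.

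The other genes of ErbB signalling were taken from a list of 101 genes in 6 roles, of which 92 were tested. The list was drawn up with earlier results of these data known, so its shares are a description only. In Sirt6-KD 23 of them were called higher, or 25.0%, and 1 lower, against 8.02% and 10.7% of all genes, and their median log2FC was 0.34. With S1, S5, S6 or S7 left out the count called higher was 12, 13, 12 and 13. All genes called higher fell from 1063 to 552, 491, 445 and 477 in these settings. Without S1 and S2 the count of the list was 19, against 5.71% of all genes. Of the 24 genes called, 11 kept the call with each library left out, and these were Timp3, Pik3r1, Ptpn1, Egr1, Fosl1, Phlda1, Dusp5, Dusp6, Spry2, Plaur and Lif. With spike-in scaling none of the 92 was called, while of all 13250 genes 20 were called higher and 4 lower.

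**Figure D4:**
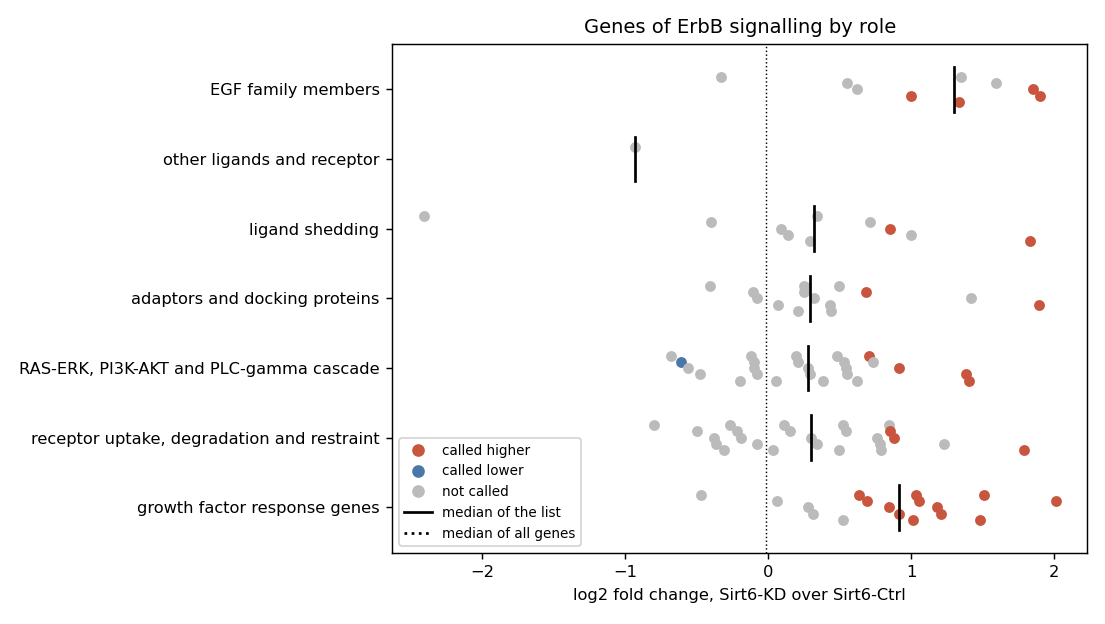
Fold change between the groups on the log2 scale (log2FC) for the EGF family members and every other tested gene of ErbB signalling, by role, with 1 point per gene (red called higher, blue called lower, grey not called). Solid lines give the median of each list and the dotted line that of all genes, -0.016. The growth factor response genes (median 0.91) lay to the right of the 4 lists of shedding, adaptor, cascade and uptake genes, whose medians were 0.28 to 0.32.

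Among the other ligands and the fourth receptor, only Erbb4 had a row. It had 44, 2, 41 and 187 reads in S1 to S4 and 3, 18, 13 and 93 in S5 to S8, and its groups overlapped (log2FC -0.93, adjusted p = 0.614, edgeR). S4 and S8 held most of its reads.

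Of the 10 genes of ligand shedding, 2 were called higher and 0 lower, or 20% higher, against 8.02% higher and 10.7% lower among all genes. Adam17, the main sheddase of TGF-α, amphiregulin, epiregulin and HB-EGF, had 127 to 151 CPM in Sirt6-Ctrl and 134 to 188 CPM in Sirt6-KD (log2FC 0.14, 95% interval -0.17 to 0.45, adjusted p = 0.511, edgeR). Adam10, which sheds betacellulin, was not called either (log2FC 0.29, adjusted p = 0.517, edgeR), and its log2FC was -0.16 without S1 and S2. Rhbdf2 encodes iRhom2, which brings ADAM17 to the cell surface. It had 8.23 to 29.3 CPM in Sirt6-Ctrl and 33.7 to 51.9 CPM in Sirt6-KD, without overlap, and missed the threshold (log2FC 1.0, adjusted p = 0.0551, edgeR), but was called by DESeq2, by limma-voom, without S2, without S3 and without both S1 and S2. Timp3, which encodes an inhibitor of ADAM17, rose from 55.0 ± 10.3 to 99.3 ± 11.3 CPM (log2FC 0.85, adjusted p = 0.00788, edgeR). Adam12, a further sheddase of HB-EGF, rose from 54.2 ± 46.9 to 193 ± 24.9 CPM (log2FC 1.83, adjusted p = 0.0472, edgeR). Its call was lost without S1, S5, S6, S7 or S8, over a range of 1.51 to 2.40 in log2FC. Without both S1 and S2 it was called, with a lower log2FC of 1.06 (adjusted p = 0.0091, edgeR).

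Of 14 adaptor and docking genes tested, Gab2 and Shc2 were called higher and none lower, or 14.3% and 0, against 8.02% and 10.7% of all genes. Grb2, which links the receptors to SOS, and Sos1, which encodes a SOS protein, had log2FC values of -0.41 and 0.49 that passed the adjusted p (0.0254 and 0.0315, edgeR) but not the fold change. Gab2 rose from 11.8 ± 9.32 to 43.8 ± 6.43 CPM (log2FC 1.89, adjusted p = 0.0163, edgeR), and the call was lost without S1 or S6, over a range of 1.64 to 2.59. Without both S1 and S2, Gab2 was called with a lower log2FC of 1.31 (adjusted p = 0.0357, edgeR). Of 25 cascade genes, 4 were called higher, among them Nras, Pik3r1 and Prkca, and Hras was called lower. All genes were called higher in 8.02% and lower in 10.7%, and the 4 cascade genes are 16.0%. Pik3r1, which encodes the p85α subunit of PI3K, rose from 46.8 ± 16.9 to 123 ± 7.25 CPM (log2FC 1.40, adjusted p = 0.00377, edgeR). Of the other PI3K genes listed, Pik3ca and Pik3r2 were lower, with log2FC values of -0.56 and -0.48. They passed the adjusted p (0.0441 and 0.0304, edgeR) but not the fold change. Pik3cb, with a log2FC of 0.55, passed neither (adjusted p = 0.103, edgeR). Nras had a log2FC of 0.91 (adjusted p = 0.0219) and Hras one of -0.61 (adjusted p = 0.0208, both edgeR). With spike-in scaling Hras was at 0.47, which is -0.47 after subtraction of the median of all genes. The call of Shc2 was lost without S1, S2, S4, S5, S6 or S7 and that of Prkca without S1, S5, S6, S7 or S8. The calls of Nras and Hras were lost without S1, S5, S6 or S7, and that of Hras also without S2 or S8, with ranges of 0.78 to 1.18 and -0.70 to -0.45. Without both S1 and S2 the calls of Shc2, Nras and Hras were lost too.

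Of 25 tested genes of receptor uptake, degradation and restraint, 3 were called higher and 0 lower, which is 12% higher, near the 8.02% of all genes, with 10.7% of all genes lower. Cbl and Cblb encode the ubiquitin ligases that mark active EGF receptor for degradation. Cbl had 3.13, 2.44, 13.7 and 7.42 CPM in S1 to S4 and 20.2, 21.6, 26.9 and 23.9 CPM in S5 to S8 (log2FC 1.79, adjusted p = 0.0248, edgeR). All Sirt6-KD libraries were above S3, and the call of Cbl was lost without S1, S5, S6, S7 or S8, over a range of 1.53 to 2.41. Without both S1 and S2, Cbl was called with a lower log2FC of 1.14 (adjusted p = 0.0264, edgeR). The call of Cblb (log2FC 0.88, adjusted p = 0.0275, edgeR) was lost without S1, S2, S4, S5, S6 or S7, and without both S1 and S2. Its groups overlapped, with S3 at 70.5 CPM and S8 at 67.8 CPM. Ptpn1, which encodes the phosphatase PTP1B that acts on the EGF receptor, rose from 58.1 ± 16.2 to 105 ± 6.63 CPM (log2FC 0.85, adjusted p = 0.0133, edgeR). Lrig1, a membrane protein that restrains ErbB receptors, had 5 reads in S2 and 256 to 727 in the other libraries and was not called (log2FC 1.23, adjusted p = 0.271, edgeR).

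The growth factor response genes are transcripts known to be induced by receptor signalling through ERK, and by other stimuli too. In Sirt6-KD cells 12 of the 17 tested were called higher, or 70.6%, and none was called lower, against 8.02% and 10.7% of all genes. Because this list was also drawn up with earlier results known, its share is no independent test. Egr1, an immediate early transcription factor, rose from 160 ± 21.9 to 288 ± 11.4 CPM (log2FC 0.84, adjusted p = 0.00401, edgeR). Egr1 was lowest in S1, at 128 CPM, and 169 to 173 CPM in the other 3 Sirt6-Ctrl libraries. Plaur, the urokinase receptor, and Phlda1 had log2FC values of 1.05 and 1.03 (adjusted p = 0.00416 and 0.00573, edgeR). Lif, a cytokine of the IL-6 family, had the largest rise of the list, from 31.3 ± 12.1 to 126 ± 10.1 CPM (log2FC 2.01, adjusted p = 0.00217, edgeR). Fosl1, which encodes the AP-1 subunit FRA1, rose from 49.9 ± 15.8 to 116 ± 14.9 CPM (log2FC 1.21, adjusted p = 0.00604, edgeR). Feedback genes of ERK, which encode phosphatases and a Sprouty protein, were called higher too. Dusp5, Dusp6 and Spry2 had log2FC values of 1.18, 1.01 and 0.91 (adjusted p = 0.00508, 0.00573 and 0.00637, edgeR). The calls of Egr2 and Ier3 were lost without S1, S5, S6 or S7, that of Myc also without S2 or S4, and that of Il11 without S1 alone. Without both S1 and S2, Egr2, Ier3 and Myc were not called (adjusted p = 0.107, 0.0547 and 0.0897, edgeR). The 5 genes not called were Fos, Junb, Ier2, Dusp4 and Spry4, with log2FC values of 0.28, 0.31, 0.06, 0.52 and -0.47. Under spike-in scaling, after subtraction of 0.94, the 12 genes called had log2FC values of 0.59 (Ier3) to 1.81 (Lif).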

How the data were processed

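RNA-seq was analysed in 4 Sirt6-Ctrl and 4 Sirt6-KD libraries, grouped by the genotype in the labels. The table of raw counts deposited by the authors has 32975 rows, 1 for each Ensembl gene or spike-in RNA. The submitters' processing notes name Trimmomatic 0.36, STAR 2.5.2b, featureCounts of Subread 1.5.2, DESeq2 and the Rnor_6.0 build; strandedness is not given in the sources used here, so antisense reads cannot be told apart. The authors also deposited a table of 13612 rows with signal values (the counts divided by 1 size factor per library), log2 fold changes and p-values of their own comparison. Only its gene names were used.

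Rows were filtered by filterByExpr, normalized by TMM and tested with edgeR 4.0.16 in R 4.3.3 (glmQLFit and glmQLFTest, two-sided, Benjamini-Hochberg over all 13313 rows tested, of which 63 were spike-ins). The standard error is the fitted log2 coefficient divided by the square root of F. Calls needed an adjusted p below 0.05 together with more than 1.5 times the level. DESeq2 1.42.0, limma-voom (limma 3.58.1), other filters and scalings, and left-out libraries were alternatives. The scripts were tested on simulated data. Nothing in the labels ties libraries to rats, so p-values measure the spread between these libraries, which may be technical in part. Reads carry no molecular identifiers, so floors cover counting error only. No pair of libraries of a group agreed within sampling noise (chi-square per row at least 18.4). The chi-square per row was 113 to 420 between Sirt6-Ctrl libraries and 18.4 to 73.9 between Sirt6-KD libraries.

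The genes and lists were chosen with earlier results of these data known. By rule the text names the 10 members, Sirt6, the called genes of the pathway lists (4 per role by p, and any needed for small counts), the 3 genes nearest in pattern to Tgfa, Egfr and Errfi1, and the neighbours of Areg. Further response genes, Adam17, Adam10, Rhbdf2, Lrig1, Grb2, Sos1, Cd24, Car12, Pik3ca, Pik3r2 and Pik3cb were chosen after their values were seen. The promoter motifs and the ratio of Erbb2 to Egfr were also chosen after the sequences or values were seen. A few listed genes had no row under the name searched and were not analysed here, and single values of some listed genes are not reported here. No transcript length was at hand, so levels per length, which had been planned, were not computed.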

Additional observations from a re-analysis of the deposited data

Results flagged for a closer look

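In 4 of the 68 groups of 4 libraries examined for the EGF family members, Sirt6 and the called genes of ErbB signalling, 1 library lay far from the other 3, with a gap to its nearest neighbour, as a share of the range of the group, above Dixon's 95% value for 4 samples. Chance gives about 1 in 20 such groups, or 3. For Btc, S6 was the lowest Sirt6-KD library, with 0 reads (gap 0.846 of the range). For Egr1, S1 was the lowest Sirt6-Ctrl library (0.904). For Egr2, S4 was the highest Sirt6-Ctrl library, at 10.2 CPM beside 3.12 to 3.90 CPM (0.89). For Lif, S7 was the highest Sirt6-KD library, at 141 CPM beside 120 to 122 CPM (0.908).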

How the results depend on the processing

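Tgfa was called under all 16 alternatives, and Ereg and Hbegf under all but spike-in scaling, where their log2 fold changes were 2.69 and 1.81 (adjusted p = 0.0711 and 0.0834, edgeR). Errfi1 lost its call under 8 of 16, among them spike-in scaling (2.14) and the removal of S1 and S2 (1.02). Egfr and Nrg1 were called under none. Erbb2 was called by DESeq2 (1.37) and limma-voom (1.58). When single libraries were left out, log2 fold changes ranged over 1.74 to 1.97 for Tgfa, 1.69 to 2.26 for Ereg, 0.84 to 1.18 for Hbegf, 1.13 to 1.89 for Errfi1, 1.24 to 2.26 for Areg, 1.13 to 1.95 for Erbb2, 0.46 to 0.95 for Egfr, 0.40 to 0.82 for Nrg1 and -0.72 to 0.52 for Btc. Btc was positive under spike-in scaling (0.67), with limma-voom (0.04), without S1 (0.52) and without S6 (0.08), and had no value with a filter of 1 CPM in 4 libraries. Hras (0.47) and Mthfd2l (0.57) were positive under spike-in scaling, and Adam10 negative (-0.16) without S1 and S2.

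Among the members 4 were called higher, 1 under spike-in scaling, 5 by DESeq2 and by limma-voom, and 3 to 6 with a library left out, 6 being without S3. Of all genes, 1063 were called higher and 1416 lower, against 20 and 4 under spike-in scaling, 445 to 1699 and 700 to 1913 with a library left out, 1602 higher by DESeq2 and 709 lower without S1 and S2. Among the other genes of ErbB signalling, those called higher were 0 under spike-in scaling and 12 to 29 with a library left out, and those called lower were 0 under spike-in scaling, with spike-ins removed, without a filter and without S1 and S2, 2 by DESeq2, 6 without a fold threshold and 0 to 3 with a library left out. Except where a value or the smaller number of samples shows it, the cause was not tested. No paired analysis was possible because the labels and columns carry no number that both groups share. Coding length in place of gene length was not run, since no transcript length was at hand.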

Other observations

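The genes whose pattern over the 8 libraries was nearest to that of 3 members were found by the root mean square difference of log2 CPM centred on the mean of each gene. Since the groups differ, this measure mostly reflects the difference between them. Nearest to Tgfa were Lama5, a laminin chain (0.19), Otud3, a deubiquitinase (0.24), and Tns3, a tensin of focal adhesions (0.25). Lama5 rose from 67.4 to 227 CPM on average, with a log2 fold change of 1.75, beside 1.85 for Tgfa. Nearest to Egfr were Fam76b (0.10), Apc (0.11) and Hif1a (0.11), with log2 fold changes of 0.56, 0.69 and 0.63. Apc, a scaffold of Wnt signalling, was called (adjusted p = 0.0475, edgeR), but not without any 1 of the libraries other than S3 (0.56 to 0.96 over the libraries left out), and Hif1a, the oxygen-regulated transcription factor, was not (adjusted p = 0.0625, edgeR). Nearest to Errfi1 were Mthfd1l, a mitochondrial folate enzyme (0.16), Ero1a, an oxidase of protein folding (0.17), and Cers6, a ceramide synthase (0.17), with log2 fold changes of 1.15, 1.23 and 1.39.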
